A study of Homo sapiens with 17 samples.

Results

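The genes described here are 33 members of the TGF-β pathway, of the mesenchymal programme and of the extracellular matrix, out of 20037 protein-coding genes. They were chosen by name and not by a measured value, though with earlier results of these data known. A listed binding region was assigned to a member when it overlapped the RefSeq span of the gene (GRCh38.p14) extended by 25 kb on each side, called its window here. The members were 3 ligands, 3 receptors, 5 SMAD proteins, 6 transcription factors of the epithelial-mesenchymal transition, 4 mesenchymal and contractile genes, 9 matrix proteins and 3 matrix enzymes. Their windows were 53.8 to 294 kb long, with a median of 104.8 kb against 74.1 kb for all genes, and covered 4.16 Mb in all.

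TGF-β ligands bind a pair of kinase receptors, TGFBR1 and TGFBR2, which phosphorylate SMAD2 and SMAD3. These enter the nucleus with SMAD4, while SMAD6 and SMAD7 restrain the pathway. In epithelial cells, the thyroid follicular cell among them, the pathway slows growth and can drive the epithelial-mesenchymal transition, in which SNAI, TWIST and ZEB factors replace epithelial genes by mesenchymal and matrix genes. Thyroid hormone receptor β (TRβ) is a nuclear receptor that sits on DNA and changes its partners when it binds T3, the active thyroid hormone. BRG1 (SMARCA4) is an ATPase of the SWI/SNF chromatin remodelers, which move nucleosomes. ARID1A belongs to the form called BAF and PBRM1 to the form called PBAF, and BRG1 can drive both.

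The lists came from CUT&RUN, in which an antibody brings a nuclease to a protein on chromatin and the released DNA is sequenced. The cells were Nthy-ORI, 1 immortalised line from normal human thyroid epithelium, with no genetic change named in the labels. All cells were kept for 24 hours without hormone, in stripped serum, and then received vehicle (NaOH) or 10 nM T3. Each library is labelled 6 hours, and the protocol text also names 24 hours. Antibodies to TRβ, BRG1, ARID1A and PBRM1 were each used in 2 libraries per condition, on nuclei of 500000 cells, and a single IgG library was not analysed here. For each antibody and condition, 1 list of peaks seen in both libraries was deposited, so a difference between lists has no replicate check. The labels do not say that the libraries came from separate cultures.

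For TRβ there were 1412 listed regions in the vehicle condition and 7208 in the T3 condition, 64299 and 55938 for BRG1, 49021 and 41710 for ARID1A, and 9115 and 38140 for PBRM1. Read depth is unknown, so a longer list cannot be told apart from a deeper or cleaner pair of libraries. Of 11 thyroid and epithelial marker genes, 5 (45.5%, against 39.3% of all genes) had a TRβ T3 region in their window, PAX8, HHEX, TG and the neighbours KRT8 and KRT18, whose strongest region was the same. PAX8, a thyroid transcription factor, had 20 BRG1 regions with vehicle and 17 with T3. The window of NKX2-1, another one, held 1 ARID1A vehicle region and no other. The lists do not measure RNA, so the labelled cell type was checked only in this way.

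TRβ was listed near more members with T3 than with vehicle in the lists as deposited, of which the T3 list was 5.10 times as long. With vehicle, 4 members (12.1%) had a TRβ region in their window, against 11.1% of all protein-coding genes. They were SMAD3, ZEB1, COL1A1 and COL4A1, and in 3 of them (9.09%; 6.81% of all genes) the region was absent from the T3 list, COL1A1 being the exception. With T3, 17 members (51.5%, exact 95% interval 33.5 to 69.2) had a TRβ region, against 39.3% of all genes, a share inside that interval, and all 17 had a region found with T3 alone, against 37.7% of all genes. TRβ regions were more numerous with T3 at 17 members, fewer at 2 (SMAD3 and ZEB1) and equal at 14, each of which had none in either list. Among all genes, 36.0% had more TRβ regions with T3 and 3.02% had fewer.

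At stricter settings, which left few members, their share was below that of all genes. At an irreproducible discovery rate (IDR, the authors' measure of disagreement between the 2 libraries) of at most 0.01, the limit of the lists being 0.05, 6 members (18.2%) had a TRβ T3 region against 25.4% of all genes. They were COL1A1, COL4A2, FN1, SMAD6, SMAD7 and VIM. With the T3 list held to the length of the vehicle list by signal value, 3 members (9.09%) remained, COL1A1, SMAD6 and VIM, against 14% of all genes. The 3 are fewer than the 4 members with a vehicle region. Cutting the list removes any whole-list gain by design, so it cannot tell more binding from a longer list. Within the bare gene spans, 14 members (42.4%) had a region against 22.5% of all genes, and with 100 kb on each side 20 (60.6%) against 58.8%.

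The 17 members held 30 different TRβ T3 regions, of which 22 lay inside a member gene, and 29 (96.7%, exact 95% interval 82.8 to 99.9) had no vehicle region, against 92.8% near other genes. The authors' signal value of a region, the sum of its values in the 2 libraries, ran from 8.17 to 18.7 with a median of 9.77, near the 10.1 of the whole list. Of the 30, 2 ranked in the top 10% of the list and 13 above its median rank. In 8 of the 30 the IDR was at most 0.01, against 47.4% of the whole list. By signal value the members' TRβ regions thus stood near the middle of the list, and a smaller share of them met the stricter IDR. In 3 regions the values of the 2 libraries were more than 2-fold apart, those of TGFBR3 and a pair at COL5A1.

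**Figure D1:**
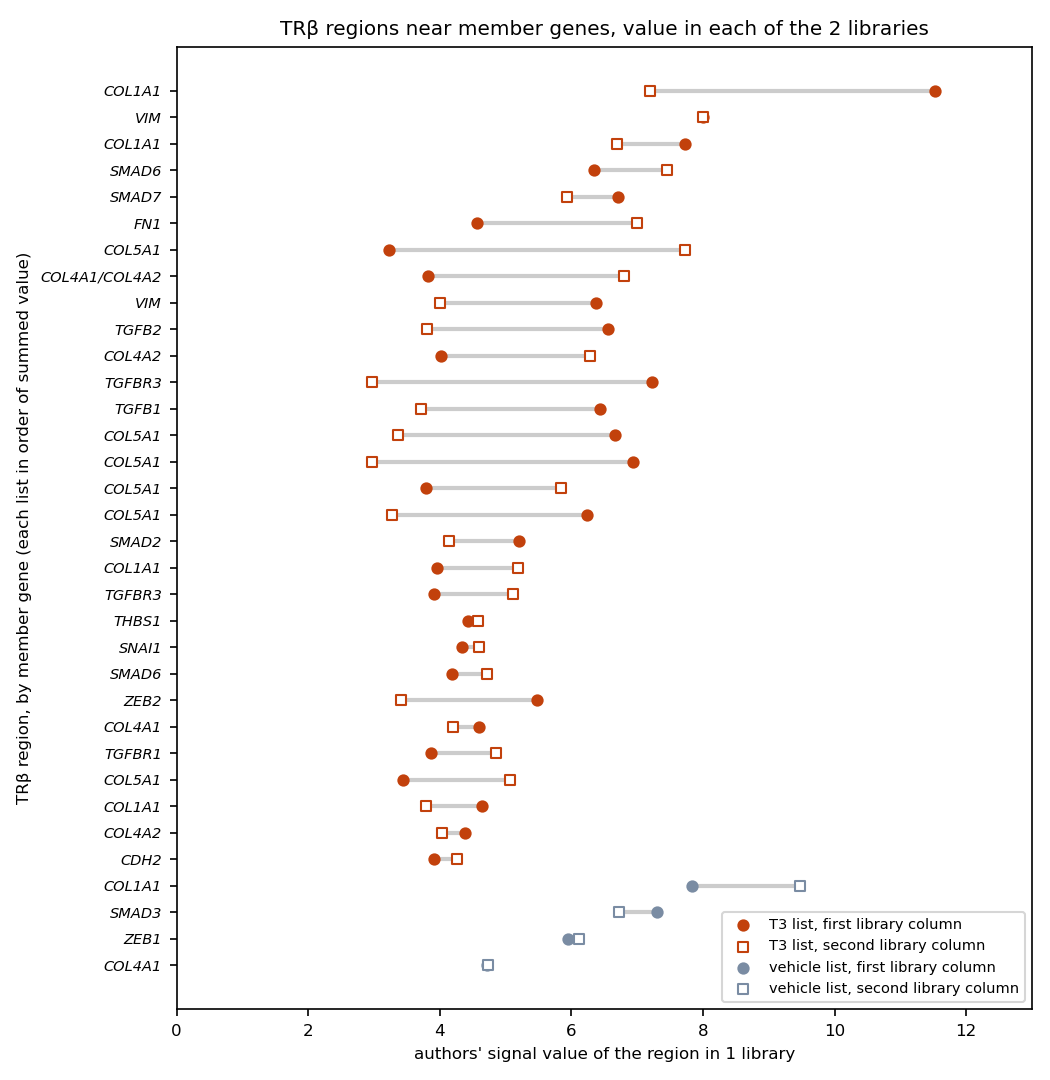
Authors' signal value (horizontal axis) of each TRβ region near a member gene in each of its 2 libraries, with the T3 list above and the vehicle list below, each in order of the summed value. Filled circles are the first library column and open squares the second; the VIM region had 8.0 in both, whereas the first TGFBR3 region had 7.23 and 2.97.

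Among the 25 members with an annotated start site in the sequence table, 8 had a TRβ T3 region in the window from 250 bases before to 50 after a start site. The stretches before the start sites of the 4 with the highest signal value are shown because this is the promoter DNA on or beside which the receptor was listed. They are RefSeq sequence (GRCh38.p14), written 5′ to 3′ on the gene's strand and ending at the base before the start site, with the bases inside the TRβ T3 region in capitals. They are VIM (chr10:17227991-17228240, plus strand), SMAD6 (chr15:66701986-66702235, plus), COL4A1 (chr13:110307158-110307283, minus) and TGFB2 (chr1:218345086-218345335, plus). The COL4A1 stretch is the 126 bases between its start site and that of COL4A2, which is transcribed away from it.
VIM: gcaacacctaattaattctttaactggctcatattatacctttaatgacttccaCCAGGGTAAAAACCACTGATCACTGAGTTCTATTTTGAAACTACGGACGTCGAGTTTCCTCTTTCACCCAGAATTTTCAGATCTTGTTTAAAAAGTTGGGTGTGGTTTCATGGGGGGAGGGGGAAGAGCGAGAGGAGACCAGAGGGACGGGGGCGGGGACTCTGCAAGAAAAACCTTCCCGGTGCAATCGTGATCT
SMAD6: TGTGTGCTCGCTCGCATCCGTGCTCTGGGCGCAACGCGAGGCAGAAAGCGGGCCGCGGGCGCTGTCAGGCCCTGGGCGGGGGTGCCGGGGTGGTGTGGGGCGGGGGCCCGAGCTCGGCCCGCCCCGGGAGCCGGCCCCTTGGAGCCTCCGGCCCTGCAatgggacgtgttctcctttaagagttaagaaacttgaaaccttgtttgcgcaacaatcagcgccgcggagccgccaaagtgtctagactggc
COL4A1: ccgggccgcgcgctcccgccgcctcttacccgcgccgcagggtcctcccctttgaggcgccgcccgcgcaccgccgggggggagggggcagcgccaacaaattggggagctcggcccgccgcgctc
TGFB2: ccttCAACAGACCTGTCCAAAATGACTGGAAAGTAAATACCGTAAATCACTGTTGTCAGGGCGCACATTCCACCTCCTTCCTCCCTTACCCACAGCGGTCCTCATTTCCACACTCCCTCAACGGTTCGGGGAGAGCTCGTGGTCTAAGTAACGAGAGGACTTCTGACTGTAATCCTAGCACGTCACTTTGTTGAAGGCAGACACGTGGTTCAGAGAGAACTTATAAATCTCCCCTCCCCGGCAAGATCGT

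The TRβ region covered 196 of the 250 bases before the VIM start site, 158 of those at SMAD6 and 246 of those at TGFB2. At COL4A1 it covered 0 of the 126 bases, since it began inside COL4A2 and met only the far end of the 250 bases before the COL4A1 start. The stretches differed in base composition, with a GC content of 46% at VIM, 50.4% at TGFB2, 68% at SMAD6 and 80.2% between the collagen genes. Each motif was searched on both strands in windows of 300 bases (250 before to 50 after the start site). The hexamer bound by nuclear receptors, AGGTCA, occurred in 13.8% of all 35116 windows and in 3 of the 52 member windows (5.77%; TGFBR1, SMAD3 and SMAD7). A direct repeat of it with 4 bases between, the classic thyroid hormone response element, occurred in 7 windows (0.0199%) and in 0 of the 52.

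Motifs of the factors at the end of the TGF-β pathway were searched in the same windows. The SMAD palindrome GTCTAGAC was found in 71 windows (0.202%), and in 1 of the 52 member windows, that of SMAD6. There it lay 12 bases before the start site, at chr15:66702224-66702231 in the lower-case part of the stretch, outside the TRβ region that ends at 66702143. The SMAD GC motif GGCGCC was in 19.2% of all windows and in 12 of the 52 (23.1%), and at COL4A1 it lay 71 bases before the start site. The AP-1 motif TGACTCA was in 4.95% of all windows and in 2 of the 52 (3.85%), at SMAD3 and TGFBR2. The motif of SNAI and ZEB factors, CAGGTG, was in 20.6% of all windows and in 9 of the 52 (17.3%), at LOX, SMAD3, SMAD7, TGFBR1 and ZEB1. A match describes letters and is not a bound site.

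Of the 3 ligands, TGFB1 and TGFB2 had a TRβ T3 region and TGFB3 had none. The TGFB2 region (chr1:218345090-218346132) spanned the start site, with values of 6.55 and 3.81 in the 2 libraries and rank 3363 of the list. It lay within the strongest BRG1 region of all members, which had a signal value of 81.7 with vehicle (58.2 and 23.4) and 82.4 with T3 (47.7 and 34.7). These were ranks 33 of 64299 and 12 of 55938, so TGFB2 stood among the highest-ranked BRG1 regions of both lists. Signal values describe a region within its own list, and no change is read from values or ranks of separate lists. PBRM1 was listed there in both conditions as well, with 50.1 (16.7 and 33.4) with vehicle and 38.8 (27.3 and 11.5) with T3. An ARID1A region of 18.4 overlapped the TRβ region in the vehicle list and none did in the T3 list. The window of TGFB2 held 20 BRG1 regions with vehicle and 14 with T3, and 5 and 15 PBRM1 regions.

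TGFB1, the founding ligand of the family, had its TRβ T3 region (chr19:41363847-41364246; 6.44 and 3.71) 9.93 kb outside the gene, within the overlapping genes TMEM91 and B9D2, so its assignment to TGFB1 rests on the window alone. BRG1 (29.5) and ARID1A (14.3) were listed on it with T3, and PBRM1 was not. The strongest remodeler region near TGFB1 was an ARID1A region outside the gene (chr19:41322332-41327050), at rank 10 of the vehicle list with 57.0. Its 2 libraries gave 11.2 and 45.8, so that rank rested largely on the second. In the T3 list the overlapping region had 42.7 (17.2 and 25.4) and rank 102. TGFB3 had 3 BRG1 regions with vehicle and 1 with T3, 1 ARID1A region with vehicle and 0 with T3, and 1 PBRM1 region in each list.

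Of the receptors, TGFBR1 and TGFBR3 had TRβ T3 regions. The region at TGFBR1, the kinase that phosphorylates SMAD2 and SMAD3, covered a start site (chr9:99104746-99105718) with values of 3.86 and 4.85, rank 6098. It overlapped BRG1, ARID1A and PBRM1 regions of both conditions. TGFBR3 (betaglycan), which presents the ligand, had a region deep inside the gene (chr1:91732332-91732768; 7.23 and 2.97) with BRG1 and ARID1A in both conditions and no PBRM1. A second region 24.0 kb outside TGFBR3 had 9.02 and met no remodeler region. TGFBR2, the receptor that binds ligand first, had no TRβ region in either list, and its start site met BRG1, ARID1A and PBRM1 regions of both conditions.

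Of the 5 SMAD genes, 3 had TRβ T3 regions, among them both inhibitory SMADs, with 2 regions at SMAD6 and 1 at SMAD7. The stronger SMAD6 region (chr15:66701047-66702143) ended 93 bases before the start site, with 6.34 and 7.46 in the 2 libraries and rank 1175. BRG1 (25.4 with vehicle, 18.8 with T3) and ARID1A (14.6 and 17.2) were listed on it in both conditions, and PBRM1 (22.1) with T3 alone. The other SMAD6 region, inside the gene (chr15:66705023-66705761), had 4.19 and 4.71. On it, BRG1 was listed with vehicle alone (31.2), and ARID1A (20.0) and PBRM1 (32.3) with T3 alone. The SMAD7 region (chr18:48952246-48952929) lay 1.28 kb outside the gene with 6.70 and 5.93, on regions of BRG1 and ARID1A in both conditions and a PBRM1 region (16.2) of the T3 list.

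Among the SMADs that carry the signal, only SMAD2 had a TRβ T3 region, at the start site (chr18:47930693-47931428; 5.21 and 4.14, rank 4825). All 3 remodeler subunits were listed on it in both conditions. SMAD4, the common partner, had no TRβ region, with 5 BRG1 regions with vehicle and 3 with T3. SMAD3 had one with vehicle and none with T3 (chr15:67105544-67106860; 7.30 and 6.73), inside the gene and 6.87 kb from a start site. BRG1 (41.4 with vehicle, 54.3 with T3) and ARID1A (40.5 and 31.3) were listed there in both conditions, and PBRM1 (23.03) with T3 alone. The SMAD3 window held the most BRG1 and ARID1A regions of any member in both conditions, and the most PBRM1 regions with T3. There were 46 BRG1 regions with vehicle and 36 with T3, 34 and 33 of ARID1A, and 7 and 39 of PBRM1. With T3 this came to 20.0 BRG1 and 21.7 PBRM1 regions per 100 kb, at percentiles 98.6 and 99.1 of all genes.

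Of the 6 transcription factors of the epithelial-mesenchymal transition, SNAI1 and ZEB2 had a TRβ T3 region and ZEB1 a vehicle region. At SNAI1, a repressor of E-cadherin, the region inside the gene (chr20:49984001-49984365) had 4.34 and 4.60. PBRM1 (28.2) and ARID1A (11.5) were listed on it with T3 alone, and BRG1 with both (15.8 and 8.78). ZEB2 had a region 2.13 kb from a start site (chr2:144517083-144517988; 5.47 and 3.41), with BRG1 and ARID1A in both conditions and PBRM1 (32.1) with T3. At ZEB1 the vehicle region lay on the start site (chr10:31319320-31320680; 5.96 and 6.11), again on BRG1 and ARID1A of both conditions and PBRM1 (16.3) of the T3 list.

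SNAI2, TWIST1 and TWIST2 had no TRβ region. The window of SNAI2 held 1 BRG1 region in each condition and nothing else. That of TWIST1 had 4 BRG1 regions with vehicle and 1 with T3, and 1 PBRM1 region in each list. TWIST2 had 4 BRG1 regions with vehicle and 6 with T3, and 3 and 8 PBRM1 regions. SNAI1 stood at the other end, with 14 BRG1 regions with T3 in a short window (25.04 per 100 kb, percentile 99.6 of all genes).

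Among the mesenchymal and contractile genes, VIM and CDH2 had TRβ T3 regions and ACTA2 and TAGLN had none. VIM encodes vimentin, the intermediate filament of mesenchymal cells, and its start-site region (chr10:17228045-17229099) had 8.0 in both libraries and rank 671. A second region in the gene (chr10:17230160-17230832) had 6.37 and 4.0. Both lay within the same broad BRG1 region (54.3 with vehicle, 38.7 with T3), on an ARID1A region of both conditions and on a PBRM1 region of the T3 list alone (26.6; 12.8 and 13.7). CDH2, which encodes N-cadherin, had the weakest region of all members (chr18:28085080-28085371; 3.91 and 4.26), far inside the gene and on no remodeler region. ACTA2 and TAGLN encode smooth muscle actin and transgelin, both contractile proteins. Their windows held 1 and 5 PBRM1 regions with T3, and 1 each with vehicle.

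Matrix proteins held 16 of the 30 TRβ T3 regions, at 6 of their 9 genes, in windows that together spanned 1232 kb. COL5A1, a chain of type V collagen, had 6 and COL1A1, a chain of type I collagen, 4. COL4A2 had 3 and COL4A1 had 2, with 1 region in both windows, since these type IV collagen genes have 126 bases between their start sites and point away from each other. FN1 (fibronectin) and THBS1 (thrombospondin, which activates latent TGF-β) had 1 each. COL1A2, COL3A1 and LAMB1, a laminin chain of basement membranes, had none. At LAMB1, PBRM1 was listed on the start site with T3 alone (31.8; 21.1 and 10.7), beside 4 BRG1 regions in each condition.

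The strongest TRβ region of any member lay 7.88 kb outside COL1A1 (chr17:50209511-50210859), with 11.5 and 7.19 and rank 393. It was also the 1 region shared with the vehicle list (chr17:50209411-50210138; 7.83 and 9.48), so the receptor was listed there without added hormone too. It lay in a broad BRG1 region of both conditions (59.5 and 60.3) with rank 104 in the T3 list, on ARID1A of both, and on PBRM1 of the T3 list (17.9). The other 3 COL1A1 regions had 14.4, 9.15 and 8.43, and the first of them (chr17:50174925-50175818; 7.73 and 6.69) lay inside SGCA, a neighbouring gene. The COL1A1 window had 28.1 BRG1 and 23.7 PBRM1 regions per 100 kb with T3, at percentiles 99.8 and 99.5 of all genes, and its TRβ density of 5.92 was at percentile 97.5.

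The FN1 region (chr2:215435357-215436003) lay 65 bases from the start site, with 4.56 and 7.0. BRG1 was listed there with 27.0 in the vehicle list (11.1 and 15.9) and 59.8 in the T3 list (30.3 and 29.5), at ranks 5934 and 109. The T3 interval was 6098 bp wide and the vehicle interval 1528 bp. The T3 interval also overlapped other, separate BRG1 regions of the vehicle list inside FN1. It thus joined stretches already listed with vehicle. No change is read from values of separate lists, and a spread or rise of BRG1 was not tested. ARID1A and PBRM1 were listed on the TRβ region in both conditions. At THBS1 the region spanned the start site (chr15:39580652-39581310; 4.42 and 4.58) and also met LOC124903470. BRG1 had 38.7 there with vehicle and 15.8 with T3, at ranks 1715 and 15753.

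At COL5A1, the strongest TRβ region (chr9:134642237-134643159; 3.22 and 7.73) lay 432 bases past the start site, and another (chr9:134641062-134641852; 6.23 and 3.27) spanned it. Both lay in the same remodeler regions, of which the PBRM1 region had 38.1 with vehicle and 49.8 with T3 (rank 55 of 38140). The ARID1A region had 45.3 and 37.5, and the vehicle value stood at rank 54 of 49021. The other 4 COL5A1 regions had 8.51 to 10.02 and lay 4.63 to 189 kb from a start site. All 3 remodeler subunits were listed with T3 on the nearest of them, ARID1A alone on another, and none on the last pair. The region common to COL4A1 and COL4A2 (chr13:110307367-110307911; 3.83 and 6.81) lay 83 bases past the COL4A2 start site, on BRG1 and ARID1A of both conditions and PBRM1 (29.3) of the T3 list.

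Far fewer regions were listed near the fibrillar collagens COL1A2 and COL3A1 than near COL1A1, although their proteins are assembled together. COL3A1 had 0 regions in all 8 lists, and COL1A2 had 2 BRG1 regions with vehicle and 0 in the other 7 lists. The COL4A1 vehicle region (chr13:110210816-110211312; 4.72 and 4.74) was inside the gene and met no remodeler region.

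Among the enzymes, LOX cross-links collagen and MMP2 and MMP14 degrade matrix, MMP14 at the cell surface. None of the 3 had a TRβ region in either list. MMP14 had 10 BRG1 regions in each condition, and 1 PBRM1 region with vehicle and 8 with T3. MMP2 had 6 BRG1 regions in each, and LOX 3.

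**Figure D2:**
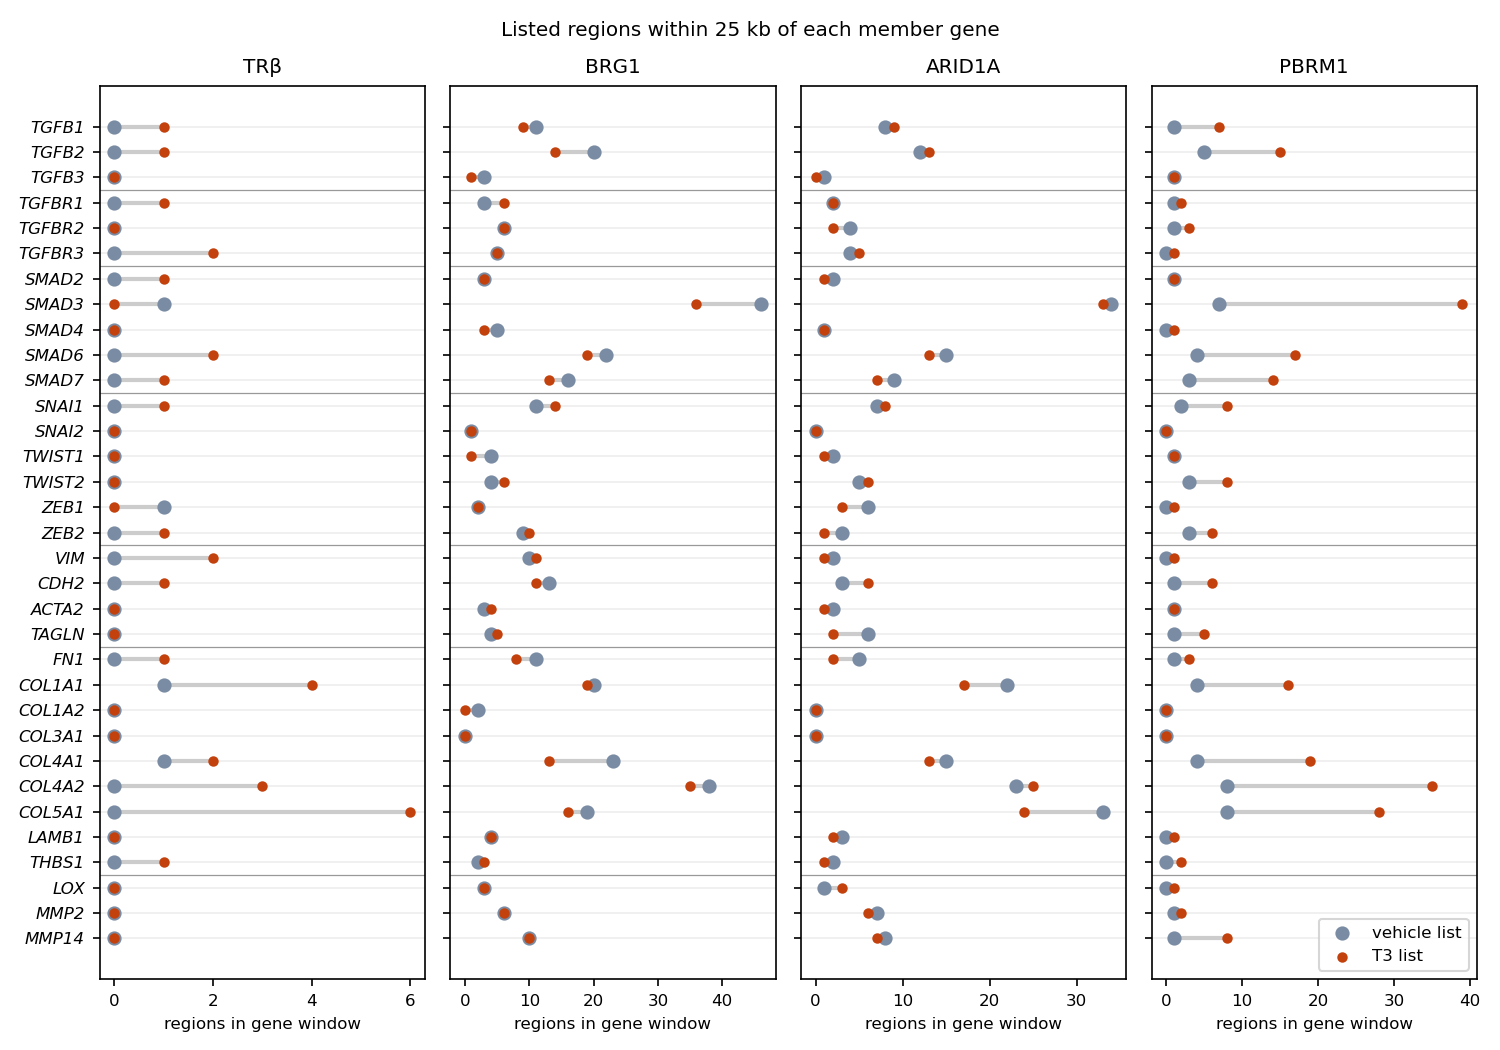
Number of listed regions in the window of each of the 33 members (rows, grouped by role between the lines) for each antibody, with the vehicle list as the large point and the T3 list as the small point. The PBRM1 counts were higher with T3 at 26 members and equal at 7, and the axes of the 4 panels differ.

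The 30 TRβ T3 regions of the members carried remodelers about as often as those of other genes. With T3, BRG1 overlapped 23 of them (76.7%, exact 95% interval 57.7 to 90.1), against 72.9% of the 6317 TRβ T3 regions in windows of other genes. ARID1A overlapped 23 (76.7% against 70.5%) and PBRM1 21 (70.0% against 67.1%). All 3 subunits were listed at 18 (60.0%, 40.6 to 77.3, against 58.3%) and none at 5 (16.7% against 20.0%). The 5 without were a pair at COL5A1 and 1 each at TGFBR3, COL4A1 and CDH2. Every one of these shares of other genes lay inside the members' interval.

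BRG1 was listed with vehicle at 24 of the same 30 places (80%, 61.4 to 92.3, against 75.2% near other genes), and in both conditions at 23 (76.7% against 71.3%). For PBRM1, 8 were listed in both conditions, 13 with T3 alone (43.3% against 43.6% for other genes), 1 with vehicle alone and 8 in neither. The 13 included the regions at SMAD6, SMAD7, SNAI1, ZEB2, VIM and THBS1. With vehicle, all 3 subunits were listed at 8 of the 30 places (26.7% against 22%). The PBRM1 T3 list was 4.18 times as long as the vehicle list, and the part of this in the count was not tested.

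At start sites, windows of 300 bases were read for the 25 members in the sequence table and for 15843 genes in all; SNAI1, SNAI2, TWIST1, TAGLN, COL1A1, COL1A2, COL3A1 and MMP2 have no window in it. TRβ met the start site of 1 member with vehicle, ZEB1 (2.76% of all genes), and of 8 with T3 (16.3%): TGFB2, TGFBR1, SMAD2, SMAD6, VIM, COL4A1, COL5A1 and THBS1. BRG1 met all 25 with vehicle (62.9%) and 24 with T3 (58.1%), TGFB3 being the exception. The members not read include COL3A1, COL1A2 and SNAI2, with few or no listed regions, and COL1A1 and SNAI1, with many. ARID1A met 20 with vehicle (46.5%) and 21 with T3 (50.9%). TGFB2 had it with vehicle alone, TWIST2 and LAMB1 with T3 alone, and TGFB3, ZEB2 and MMP14 in neither list.

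PBRM1 met 11 start sites with vehicle (20.8%) and 24 with T3 (58%). It was listed in both conditions at 10 (TGFBR1, TGFBR2, SMAD2, SMAD3, SMAD7, TWIST2, ACTA2, FN1, COL5A1 and MMP14), with T3 alone at 14 and with vehicle alone at ZEB2. At TGFB2, counted among the 14, the vehicle region began 196 bases after the start site, beyond the window. All 3 remodeler subunits met the same start-site window in 7 members with vehicle (15.1% of all genes) and in 20 with T3 (41.8%). At SMAD7, which has several start sites, BRG1, ARID1A and PBRM1 were all listed but no window met all 3. Of the 8 members with a TRβ T3 region in a start-site window, 7 had all 3 subunits in the same window with T3, and TGFB2 lacked ARID1A. The same share was not computed for other genes with TRβ at a start site, so 7 of 8 has no comparison here.

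**Figure D3:**
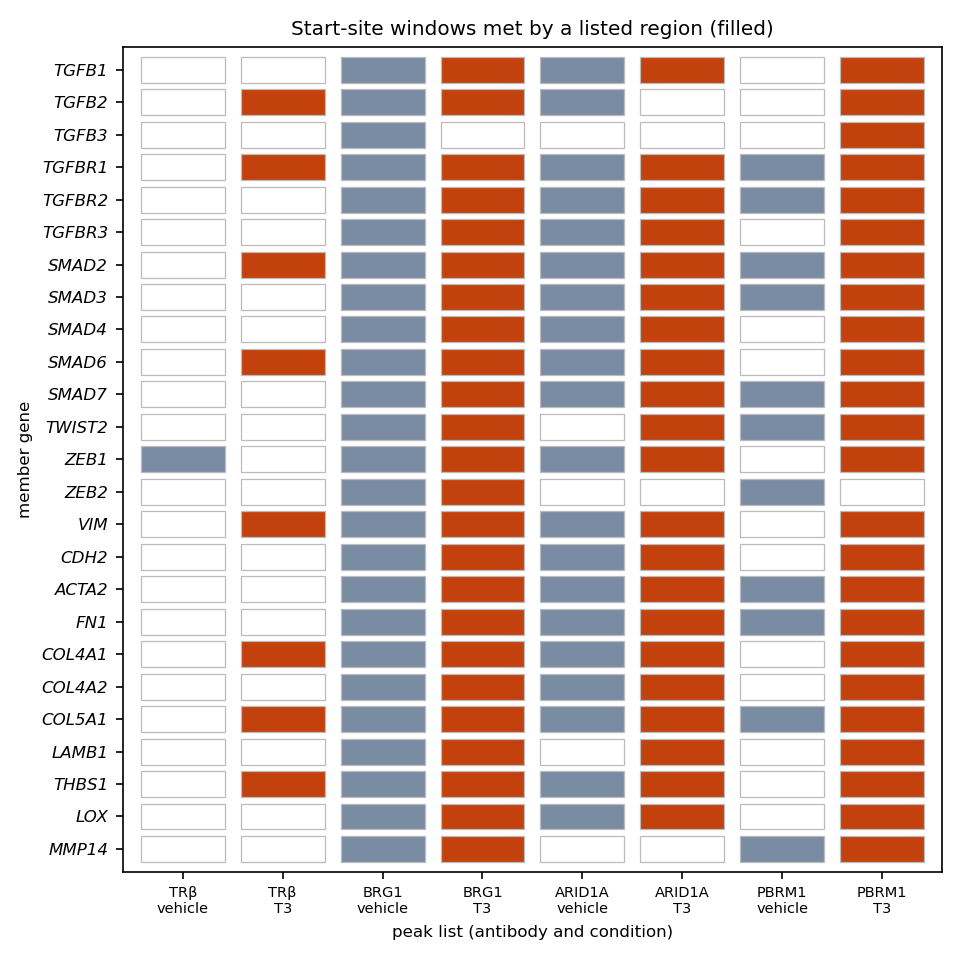
Start-site windows (250 bases before to 50 after) of the 25 members in the sequence table (rows), filled where a region of the list in that column met at least 1 window of the gene, in grey for vehicle and orange for T3. BRG1 filled 25 and 24 rows, and PBRM1 11 and 24.

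Across the wider windows, BRG1 was listed near 32 members with vehicle (97.0%; 82.8% of all genes) and 31 with T3 (93.9%; 79.8%). A BRG1 region of the vehicle list alone lay near 23 (69.7%; 57.7%) and one of the T3 list alone near 24 (72.7%; 44.3%). ARID1A was listed near 30 with vehicle (90.9%; 79.5%) and 29 with T3 (87.9%; 76%), with vehicle-only regions near 26 (78.8%; 63.2%) and T3-only regions near 18 (54.5%; 54.8%). PBRM1 was listed near 23 with vehicle (69.7%; 44%) and 30 with T3 (90.9%; 78.1%), with vehicle-only regions near 11 (33.3%; 13.4%) and T3-only regions near 27 (81.8%; 70.8%). Longer windows meet more regions, and 23 of the 33 members had a window longer than the median of all genes.

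Per 100 kb of window, listed regions were denser near members than near other genes in all 8 lists. For BRG1 there were 7.86 against 3.22 with vehicle and 6.90 against 2.81 with T3, or 2.44 and 2.45 times as many. For PBRM1 the values were 1.44 against 0.496 with vehicle and 5.72 against 2.02 with T3 (2.91 and 2.83 times), and for ARID1A 5.70 against 2.44 and 4.98 against 2.12. TRβ with T3 had 0.721 against 0.377 (1.91 times). With T3 the median member stood closer to all genes, with 5.38 BRG1 regions per 100 kb against 3.01. For PBRM1 the medians were 2.40 against 1.90, and for ARID1A 1.99 against 1.92. Above the all-gene median with T3 were 24 of the members for BRG1, 20 for PBRM1 and 17 for ARID1A. In the top 10% of all genes by BRG1 T3 density were 9 members, TGFB1, SMAD3, SMAD6, SMAD7, SNAI1, VIM, COL1A1, COL4A2 and MMP14. TRβ was not denser relative to BRG1: there were 10.5 TRβ per 100 BRG1 regions with T3 near members and 13.4 near other genes.

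The change in number of regions with T3 near members followed that of the whole lists. T3 over vehicle was 7.50 for TRβ (30 against 4 regions; 5.24 near other genes), 0.878 for BRG1 (287 against 327; 0.872), 0.873 for ARID1A (207 against 237; 0.869) and 3.97 for PBRM1 (238 against 60; 4.08). With both lists of an antibody held to equal length there were 4 TRβ regions near members in each condition. For PBRM1 there were 65 with T3 against 60 with vehicle. Equal length removes any whole-list change by design, so it cannot tell a change in binding from a longer list. By gene, PBRM1 had more regions with T3 at 26 members and fewer at 0, against 69.5% and 1.41% of all genes. BRG1 had more at 8 and fewer at 15 (19.8% and 42.3% of all genes), and ARID1A more at 8 and fewer at 20 (25.7% and 40.9%).

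By class, 177 PBRM1 regions near members were found with T3 alone (74.4%, 68.3 to 79.8), against 78.3% near other genes. For BRG1, 55 were T3-only (19.2%, 14.8 to 24.2, against 22.7%) and 72 vehicle-only (22.02%, 17.6 to 26.9, against 28.7%). For ARID1A, 75 were T3-only (36.2%, 29.7 to 43.2, against 45.5%) and 92 vehicle-only (38.8%, 32.6 to 45.3, against 49.5%). The share found in both conditions was therefore higher near members than near other genes for BRG1 and ARID1A. The vehicle-only share of other genes lay outside the members' interval for both. Their T3-only share lay outside it for ARID1A and inside it for BRG1. Regions were also denser near members than near other genes, and the part of this in the shares was not tested. With lists of equal length, 38 of 65 PBRM1 T3 regions near members were T3-only, and with a reciprocal overlap of 50% the T3-only numbers were 152 for BRG1 and 120 for ARID1A. Neighbouring regions are not independent and the intervals cover counting error only.

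**Figure D4:**
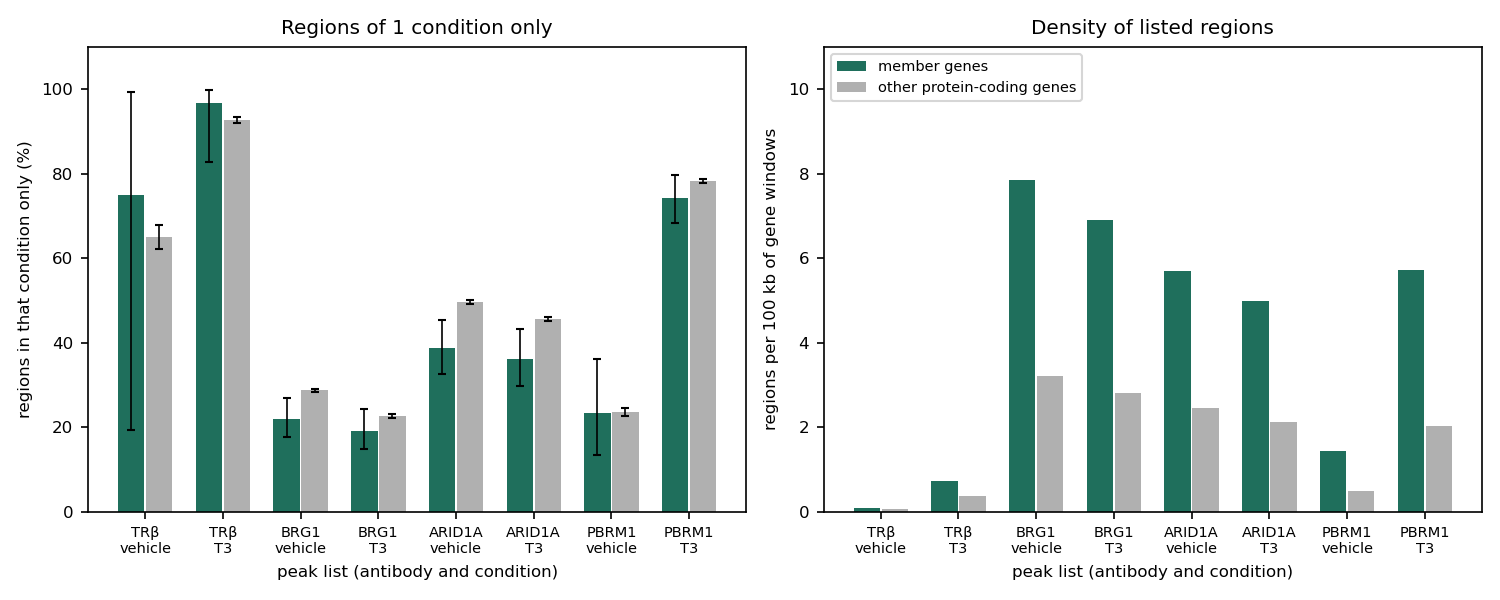
Left, share of regions found in that condition only, with exact 95% binomial intervals, and right, regions per 100 kb of gene windows, for windows of the members (green) and of other protein-coding genes (grey) in each list. For ARID1A the share of 1-condition regions was 38.8% and 36.2% near members against 49.5% and 45.5% near other genes, and the densities of members are the higher bars in all 8 lists.

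The share of BRG1 regions that met both other subunits was higher in the T3 lists, near members and near other genes. With vehicle, 38 of 327 member regions (11.6%) met ARID1A as well as PBRM1, 104 (31.8%) met ARID1A without PBRM1, 34 (10.4%) met PBRM1 without ARID1A, and 151 (46.2%) met no region of either. With T3, the same numbers were 101 (35.2%), 34 (11.8%), 44 (15.3%) and 108 (37.6%) of 287. Near other genes the share with both went from 9.76% to 30.6%, and that with PBRM1 alone from 4.46% to 11.9%. These shares stand beside a PBRM1 list that was 4.18 times as long with T3, whose part in them was not tested.

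**Figure D5:**
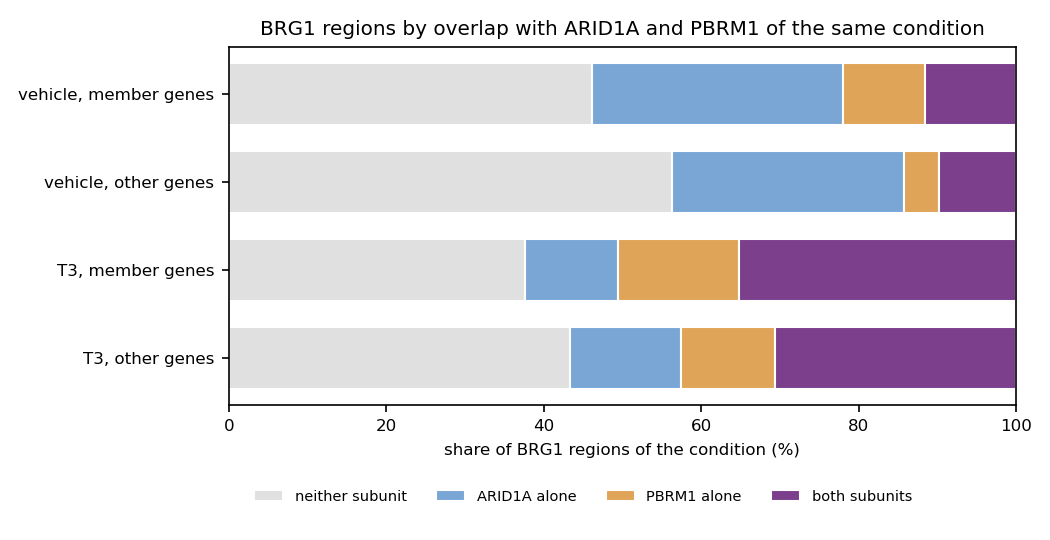
BRG1 regions of each condition, near members and near other genes, divided by overlap with ARID1A and PBRM1 regions of the same condition (share of regions, horizontal axis). The purple part, with both subunits, went from 11.6% with vehicle to 35.2% with T3 near members and from 9.76% to 30.6% near other genes.

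The PBRM1 regions found near members with T3 alone mostly lay where BRG1 was also listed with vehicle. Of the 177, 135 (76.3%, 69.3 to 82.3) overlapped a BRG1 vehicle region, against 61.1% near other genes, and 94 (53.1%) an ARID1A T3 region, against 48.6%. A TRβ T3 region met 15 of them (8.47%, 4.82 to 13.6), against 10.3% near other genes. SMAD3 alone gave 28 of its 30 on BRG1 vehicle regions, SMAD6 12 of 13, SMAD7 9 of 10 and TGFB2 8 of 9. At COL5A1 it was 8 of 22. BRG1 vehicle regions were denser near members (7.86 against 3.22 per 100 kb) and wider (median 875 against 777 bp). The part of this in the overlap shares was not tested.

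Of another 67 genes of the same pathways, also chosen by name, 37 (55.2%) had a TRβ T3 region in their window (39.3% of all genes) and 10 a vehicle region (11.1%). BRG1 was listed near 64 with vehicle (82.8%) and 64 with T3 (79.8%), and PBRM1 near 46 with vehicle (44%) and 62 with T3 (78.1%). The highest TRβ T3 value was in the window of SKI, a repressor of SMAD proteins (21.7; 6.83 and 14.8). It was followed by that of BMPR1A, a receptor for bone morphogenetic proteins (21.1; 11.01 and 10.05). Next came COL6A1, a chain of type VI collagen (19.6; 9.34 and 10.2), FSTL3, which binds activins (18.9; 8.55 and 10.4), and SMURF1, a ubiquitin ligase for SMADs and receptors (18.1; 8.58 and 9.56). The value of each of the first 4 exceeded the 18.7 of the strongest member region. These regions lay anywhere in the window extended by 25 kb, and their distance to the named gene is not given here.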

How the data were processed

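The data are 8 deposited lists, 1 per group, of peaks that the IDR method joined across a group's libraries. Bowtie2, MACS2, Trim Galore, CASAVA 1.7 and hg38 are named in the submitters' processing notes, without parameters. The signal value deposited by the authors is the sum of the values of the 2 libraries, and the columns of the libraries carry no replicate number. The −log10 of the IDR is a deposited column. Not used were the deposited score and 16 columns of summits per library. Read depth, and whether IgG served as a control, are not given here.

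Autosomal, X and Y peaks were overlapped (at least 1 bp) with windows of protein-coding genes from RefSeq GRCh38.p14. A region was shared if it overlapped a region of the other condition and was called T3-only or vehicle-only if not. Intervals, where given, are exact (Clopper-Pearson) at 95%, for counting error across regions or genes only. With 1 list per group there was no test and no p-value. Start sites and promoter sequences came from a RefSeq table that held 25 of the 33 members; exons and introns were not read. Positions and both library values are given for the strongest TRβ region of a member in each condition with the signal values of remodeler regions on it, and of other pathway genes the 6 with the highest TRβ value are named, of which 1 is not reported here. Members and lists were chosen with earlier results of these data known. Other regions and members named beyond this rule were chosen after their values were seen. Overlap counting was tested on simulated intervals. Alternatives were a stricter IDR, lists of equal length, other overlap rules, the interval of either library, other windows, the nearest gene only, and leaving out regions found in all 8 lists. Tools were scipy 1.17.1, matplotlib 3.10.9, pandas 2.3.3 and numpy 2.4.6 under Python 3.11.15.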

Additional observations from a re-analysis of the deposited data

How the results depend on the processing

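Of 66 values (6 results under 11 alternatives), 51 stayed within 1.5 times the reported count, or within the interval of the reported share, and 15 did not. At an IDR of at most 0.01, 6 members had a TRβ T3 region, 8 TRβ and 27 BRG1 regions near members were T3-only, and 87.5% (7 of 8) of the TRβ T3 regions met all 3 remodeler subunits. With lists of equal length there were 3 members with a TRβ T3 region, and 3 TRβ and 38 PBRM1 T3-only regions. Requiring a reciprocal overlap of 50% left 0 of 30 TRβ T3 regions (0%) on all 3 subunits and made 152 BRG1 and 120 ARID1A regions T3-only, since fewer overlaps count. Within the bare gene spans 35 BRG1 regions were T3-only. With 100 kb on each side the T3-only numbers were 44 (TRβ), 105 (BRG1), 142 (ARID1A) and 273 (PBRM1), in wider windows. Counting only regions whose nearest gene is a member left 15 members with a TRβ T3 region, without TGFB1 and THBS1. A tolerance of 500 bp, the interval of either library and leaving out regions found in all 8 lists moved none of the 6 results that far. No paired analysis was possible because each group has 1 list and no result comes from a test. Read depth is unknown, so absence from a list is not absence of the protein.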
